A study of Arabidopsis thaliana with 22 samples.

Results

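The *hda15-1* mutant was compared with the 2 Col-0 libraries that stand beside it in the same count table, over every gene of that table. The comparison used 4 of the 12 distinct RNA-seq columns in the count tables of the series, 2 of *hda15-1* (called *hda15* below) and 2 of the Col-0 wild type. Of the 27416 genes in the table, 19242 had enough counts to be tested and 8174 did not. *hda15-1* is a T-DNA insertion allele of *HDA15* in the Col-0 background, and a single allele was sequenced. RNA came from whole 5-day-old seedlings of both genotypes, with no treatment and no further allele, raised under long days (light for 16 h, darkness for 8 h). The labels give soil at 22 °C after 2 days of cold. The study's methods describe plates, a slightly higher temperature and a longer time in the cold. The hour of harvest is not given in the sources used here. The question behind the comparison was which transcripts change when HDA15, examined as a partner of the nuclear matrix protein AHL22, is lost. The labels call the libraries of each genotype biological replicates.

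HDA15 is a histone deacetylase of the RPD3/HDA1 type. Such enzymes take acetyl groups off histone tails, and acetylated histones mark genes that are being transcribed. HDA15 does not choose genes by its own DNA binding. Transcription factors bring it to promoters, among them the phytochrome-interacting factors PIF1 and PIF3, the light factor HY5, HFR1, NF-YC subunits and MYB96. In Arabidopsis seedlings it is known for repressing chlorophyll, light-responsive and cell elongation genes.

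The 4 libraries held between 12771163 and 21400580 counts, with the deeper pair in *hda15*. The log2(CPM + 1) values (CPM, counts scaled to library size with TMM factors over all 12 columns) of the 2 *hda15* libraries correlated at r = 0.994 across genes, and those of the 2 Col-0 libraries at 0.995. Between *hda15* and Col-0 the correlations were 0.978 to 0.983. Genes are not independent replicates, so these values describe the libraries only. The series also holds another Col-0 pair, in the table of the *ahl22 frs7 frs12* mutant, whose 2 columns differ in values from the labelled Col-0 libraries and could be matched to no labelled sample. Whether they are separate Col-0 samples could not be settled, and every value against the other pair carries this doubt. Correlations of *hda15* with that pair were 0.969 to 0.975, and the Col-0 pairs correlated with each other at 0.962 to 0.967, lower than either did with *hda15*. *AHL22* itself had 18.4 and 16.7 CPM in the Col-0 libraries of the *hda15* table, 15.8 and 11.97 CPM in *hda15*, and 2.99 and 3.02 CPM in the further Col-0 pair. Most groups of genes below are given first against the own Col-0 pair, the one in the *hda15* table, and then against the other pair. A gene was called upregulated (UG) where its log2 fold change (log2FC, *hda15* against Col-0, from edgeR) was above 1 and its p-value, adjusted over all genes tested, was below 0.05, and downregulated (DG) where the log2FC was below -1. By this rule 4.05% of the genes tested were UGs and 3.65% DGs, 7.70% together.

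Markers of shoot and root were both present in these whole seedlings. The summed level of 15 root hair genes was 33.3 and 42.8 CPM in Col-0, 28.6 and 32.3 CPM in *hda15* and 6.75 and 5.90 CPM in the further pair. For 19 genes of suberin and the Casparian strip, the barriers of the root endodermis, the sums were 494 and 487 CPM in Col-0, 435 and 452 CPM in *hda15* and 252 and 248 CPM in the further pair. Root genes were thus closer between *hda15* and its own control than to the other pair, where they were lowest. The 13 leaf photosynthesis genes summed to 40598 and 44644 CPM in Col-0, 60722 and 57575 CPM in *hda15* and 43408 and 43561 CPM in the further pair, and 10 of them were higher in *hda15* at an adjusted p below 0.05, with 1 UG among them. The 12 guard cell and stomatal genes summed to 487 and 493 CPM in Col-0, 972 and 872 CPM in *hda15* and 543 and 513 CPM in the further pair. Most of this sum was 1 gene, the UG *CYP86A2*, a cutin synthesis enzyme, with at least 385 CPM in each Col-0 library, 856 and 763 CPM in *hda15* and a log2FC of 0.97 without *hda15* replicate 1. The median log2FC of the list was 0.20, and -0.41 against the further pair. For 16 meristem and cell cycle genes the sums were 145 and 148 CPM in Col-0, 141 and 157 CPM in *hda15* and 175 and 180.0 CPM in the further pair, also with 1 UG, the shoot meristem gene *STM*. Of 11 pollen and flower genes only 1 passed the filter and it was not called, and *MGH3* and *DUO1* had 0 counts in all 4 libraries. In bulk seedlings, fewer cells of a type and less RNA per cell cannot be told apart. The part of any cell type in the results below was not tested.

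The targeted gene was low in the mutant. *HDA15* (AT3G18520, chromosome 3, 6361159 to 6365705 of TAIR10.1) had 769 and 692 counts in the 2 Col-0 libraries and 68 and 59 in the deeper *hda15* libraries. In CPM these were 54.8 and 56.1 in Col-0 and 3.56 and 3.57 in *hda15*, with no overlap. The log2FC was -3.96 with an approximate standard error (SE) of 0.172. The edgeR p-value adjusted over all 19242 genes by the Benjamini-Hochberg method was 9.63e-10. Against the other Col-0 pair, with 40.1 and 37.6 CPM, the log2FC was -3.44. Counts summed over the whole gene cannot say which part of the transcript the remaining reads came from.

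No gene beside the insertion was called. Within 20 kb of *HDA15* the annotation lists 13 further genes, of which 7 were tested, 3 were under the filter and none was called. *CASP* (AT3G18480), annotated as a CCAAT-displacement protein, had 21.9 and 20.7 CPM in Col-0 and 10.7 and 16.9 CPM in *hda15* (log2FC -0.64, SE 0.200, adjusted p = 0.0283). It lay under the fold threshold, and its log2FC changed sign against the other Col-0 pair, to 0.18. Of 21 genes tested within 50 kb, 0 were called. From 50 to 500 kb, 7 UGs and 9 DGs were found among 184 genes (8.70%), and from 500 kb to 2 Mb, 24 UGs and 25 DGs among 598 (8.19%). Across the rest of the genome 7.68% of genes were called, against 7.70% over all genes tested.

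Of the genes tested, 779 were UGs and 703 DGs. At the same adjusted p with no fold threshold, 2552 genes (13.3%) were higher and 2385 (12.4%) lower. The 2 libraries of each genotype did not overlap for any of the 1482 called genes, and over all genes tested both *hda15* libraries lay above both Col-0 libraries for 32.3% and below them for 31.5%. Most calls were moderate in size. The log2FC was beyond 2 for 143 UGs and 126 DGs and beyond 3 for 54 and 41. The median log2FC of all genes tested was 0.004. Against the other Col-0 pair the same fit called 1559 UGs (8.09% of 19271 genes) and 641 DGs (3.33%). Of the 779 UGs, 235 (30.2%) were also UGs there and 3 were DGs. Of the 703 DGs, 108 (15.4%) were also DGs there and 88 were UGs. A further 74 DGs but 0 UGs had too few counts to be tested there, so the 2 shares are not fully alike. With all 4 Col-0 libraries as 1 group, 29 UGs and 6 DGs were left.

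**Figure D1:**
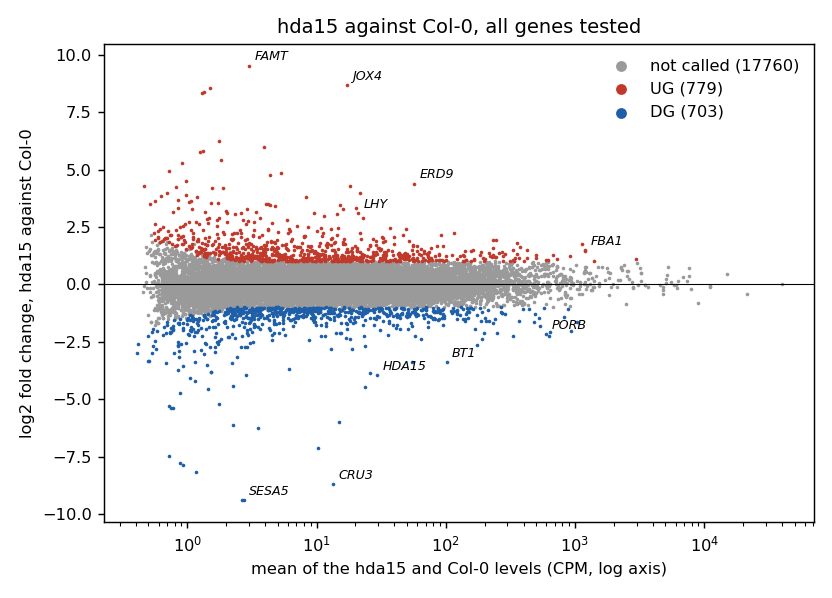
Each point is 1 of the 19242 genes tested, with the mean CPM of *hda15* and Col-0 on a log axis (x) and the log2 fold change of *hda15* against the Col-0 pair of the same table (y). The 779 UGs are red and the 703 DGs blue, and *HDA15* lies at -3.96.

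The largest rises were in genes with few or no reads in Col-0. *FAMT* (AT3G44860), annotated as a farnesoic acid carboxyl-O-methyltransferase, had 0 and 0 counts in Col-0 and 67 and 140 in *hda15*, and none in the other Col-0 pair. It was at least 51.0-fold higher, taking 3 counts over the Col-0 pair as the limit that a count of 0 allows (adjusted p = 1.62e-05 in edgeR). *JOX4* (AT2G38240), which encodes an oxygenase that inactivates jasmonic acid, had 2 and 0 counts in Col-0 and 532 and 678 in *hda15*, a ratio of 447 with a 95% exact interval of 124 to 3699 (counting error only). At both genes the *hda15* libraries lay above all 4 Col-0 libraries. *RNS1*, a secreted ribonuclease, had 2.14 and 1.30 CPM in Col-0, 31.2 and 38.0 CPM in *hda15* and 1.67 and 0.525 CPM in the other pair (log2FC 4.30, SE 0.237, adjusted p = 1.17e-08). *ERD9*, a glutathione S-transferase, had 6.05 and 4.30 CPM in Col-0, 101 and 117 CPM in *hda15* and 13.4 and 12.1 CPM in the other pair (log2FC 4.38, SE 0.180, adjusted p = 9.63e-10). AT1G51090, a predicted heavy metal transport protein, had 0.285 and 0.324 CPM in Col-0, 8.16 and 8.76 CPM in *hda15* and 0.278 and 0.0656 CPM in the other pair (log2FC 4.76, SE 0.377, adjusted p = 4.44e-07). These 3 genes were also high against every Col-0 library. AT5G47330, a predicted hydrolase, rose by a log2FC of 4.86 (adjusted p = 3.22e-07) and by 3.05 against the other pair. The others among the 10 largest rises, *HSP17.6II*, *GOLS3*, *MYB29* and *BBX30*, are described with their groups.

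Among the 10 largest falls, 6 were seed storage protein genes, described below. *MRD1* (AT1G53480) had 31.9 and 26.9 CPM in Col-0, 0.209 and 0.725 CPM in *hda15* and 35.7 and 33.4 CPM in the other pair (log2FC -6.01, SE 0.313, adjusted p = 6.08e-09). It was also low against the other pair (log2FC -6.23, adjusted p = 6.24e-08). The annotation places overlapping genes on *MRD1*, and whether counting used strand is not stated, so part of its reads may be theirs. AT5G44440, a predicted berberine bridge oxidase, had 46.1 and 44.6 CPM in Col-0 and 2.09 and 2.06 CPM in *hda15* (log2FC -4.45, SE 0.190, adjusted p = 9.63e-10), and against the other pair, at 4.66 and 5.51 CPM, it was a DG by a smaller amount (log2FC -1.29, adjusted p = 0.00749). *BGLU19*, a beta-glucosidase, had 49 and 42 counts in Col-0 and 1 and 2 in *hda15*, a ratio of 41.0 with a 95% exact interval of 13.6 to 203. AT1G68250, an uncharacterised protein, was lower with a log2FC of -4.42 (SE 0.519, adjusted p = 2.14e-05).

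Morning clock genes were called higher and evening clock genes lower in *hda15*. In the plant clock, morning genes of the *CCA1*/*LHY* group and evening genes such as *TOC1*, *GI* and the evening complex repress one another over the day, so their levels depend on the hour of sampling. Of 10 morning genes tested, 5 were UGs and 0 DGs (median log2FC 1.02). Of 9 evening genes, 8 were DGs and 0 UGs (median -1.86). Over all genes tested 4.05% were UGs and 3.65% DGs. *LHY*, a morning MYB-type repressor, had 4.49 and 4.30 CPM in Col-0 and 33.1 and 42.3 CPM in *hda15* (log2FC 3.09, SE 0.195, adjusted p = 4.53e-08). Its partner *CCA1* had 14.5 and 16.3 CPM in Col-0 and 58.8 and 69.3 CPM in *hda15* (log2FC 2.05, SE 0.154, adjusted p = 2.89e-07). *PRR5*, a pseudo-response regulator of the afternoon, had 43.2 and 54.6 CPM in Col-0 and 2.93 and 3.75 CPM in *hda15* (log2FC -3.88, SE 0.200, adjusted p = 5.47e-09). *GI*, an evening protein that stabilises the blue-light receptor ZTL, had 134 and 159 CPM in Col-0 and 40.9 and 44.1 CPM in *hda15* (log2FC -1.79, SE 0.137, adjusted p = 3.22e-07). The groups did not overlap for any of these genes. Further members, named after their values were seen, were the morning activator *RVE8* (log2FC 2.23), *LNK2* (1.64) and *PRR9* (1.45) among the UGs, and *TOC1* (-1.52), the evening complex genes *LUX* (-2.25), *ELF4* (-1.86) and *ELF3* (-1.40), and *BOA* (-2.14) among the DGs. *PRR7* went against its list at -0.73 (adjusted p = 0.000755) without reaching the fold threshold. *FKF1*, the blue-light receptor of photoperiodic flowering and a clock output, had 11.9 and 10.9 CPM in Col-0 and 0.628 and 1.15 CPM in *hda15* (log2FC -3.70, SE 0.304, adjusted p = 6.9e-07).

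The clock changes were smaller against the other wild type. There 2 of the 10 morning genes were UGs (median 0.45) and 2 of the 8 evening genes tested were DGs (median -0.44). *LHY* had 27.2 and 22.3 CPM in the other pair, *PRR5* 5.63 and 6.17 CPM and *FKF1* 1.53 and 0.656 CPM, all nearer to *hda15* than to its own Col-0. The log2FC against the other pair was 0.61 for *LHY*, 1.00 for *CCA1*, -0.82 for *PRR5* and -0.10 for *GI*. *CCA1*, *RVE8* (log2FC 1.096), *LUX* (-1.34) and *BOA* (-1.53) were called against both pairs. A difference in the hour of harvest between library pairs was not tested.

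**Figure D2:**
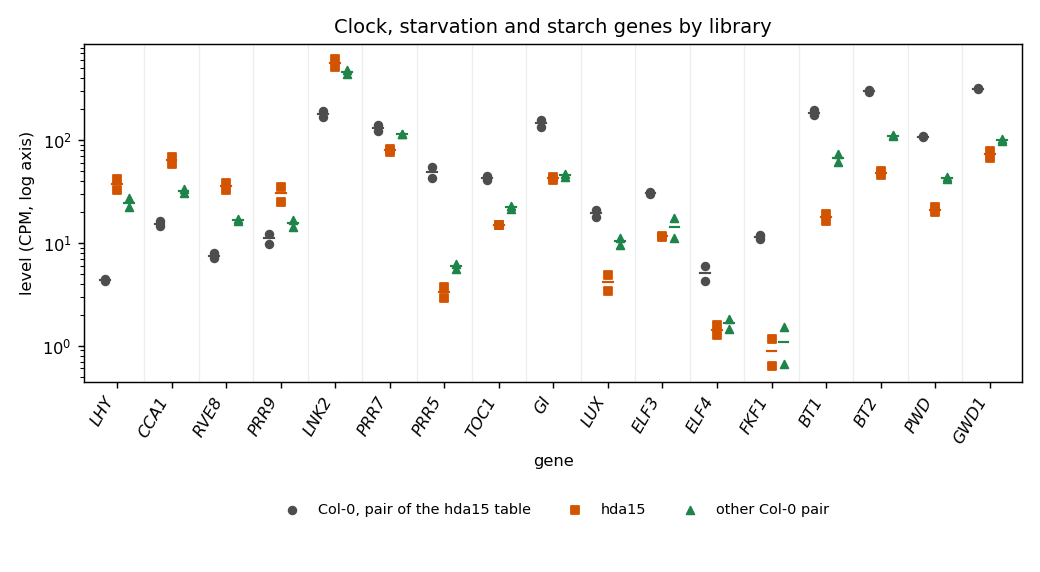
Levels of 13 clock genes and 4 starvation and starch genes in CPM (y, log axis), 1 point per library and a short line at the mean of each pair, for the Col-0 pair of the *hda15* table (grey circles), *hda15* (orange squares) and the other Col-0 pair (green triangles). For *LHY*, *PRR5*, *GI* and *FKF1* the other Col-0 pair lies close to *hda15*, and for *CCA1*, *LUX* and *BT1* it lies between the mutant and its own Col-0.

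The promoters of 6 clock genes are shown because they hold the elements by which the morning and evening groups differed in count. The windows run from 250 bases before to 49 after the annotated gene start in RefSeq TAIR10.1, each 300 bases long, 5′ to 3′ on the strand of the gene. Capitals mark CACGTG, the G-box that bHLH and bZIP factors such as PIFs and HY5 bind, and AAAATATCT or its reverse complement AGATATTTT, the evening element that CCA1, LHY and RVE8 bind.
LHY: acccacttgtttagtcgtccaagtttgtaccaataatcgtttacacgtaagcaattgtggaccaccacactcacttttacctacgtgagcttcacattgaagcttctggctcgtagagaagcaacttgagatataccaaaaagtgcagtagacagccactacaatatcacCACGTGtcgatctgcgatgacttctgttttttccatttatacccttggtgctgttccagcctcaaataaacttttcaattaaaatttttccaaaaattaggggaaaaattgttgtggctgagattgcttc
CCA1: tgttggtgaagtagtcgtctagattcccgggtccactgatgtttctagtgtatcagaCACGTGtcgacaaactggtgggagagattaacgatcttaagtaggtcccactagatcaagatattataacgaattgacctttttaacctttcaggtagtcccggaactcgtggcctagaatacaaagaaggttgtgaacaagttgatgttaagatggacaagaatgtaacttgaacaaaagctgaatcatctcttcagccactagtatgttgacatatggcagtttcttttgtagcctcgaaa
PRR5: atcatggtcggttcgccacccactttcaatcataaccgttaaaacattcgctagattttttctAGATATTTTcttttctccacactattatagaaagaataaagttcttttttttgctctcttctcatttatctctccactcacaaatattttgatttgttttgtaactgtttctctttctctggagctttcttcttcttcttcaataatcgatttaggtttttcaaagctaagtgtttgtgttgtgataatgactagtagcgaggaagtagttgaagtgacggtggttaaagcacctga
TOC1: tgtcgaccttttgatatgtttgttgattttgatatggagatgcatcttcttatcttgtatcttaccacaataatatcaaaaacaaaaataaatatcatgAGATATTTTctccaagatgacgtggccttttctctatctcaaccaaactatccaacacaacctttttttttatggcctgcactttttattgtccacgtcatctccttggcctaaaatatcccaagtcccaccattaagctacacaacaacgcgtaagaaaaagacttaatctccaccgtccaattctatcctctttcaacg
LUX: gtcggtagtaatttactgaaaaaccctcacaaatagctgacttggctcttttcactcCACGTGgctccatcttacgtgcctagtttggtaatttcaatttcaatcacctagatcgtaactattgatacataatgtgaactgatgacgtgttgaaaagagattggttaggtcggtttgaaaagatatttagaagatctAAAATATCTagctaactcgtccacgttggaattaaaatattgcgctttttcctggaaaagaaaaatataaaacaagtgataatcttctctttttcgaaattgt
FKF1: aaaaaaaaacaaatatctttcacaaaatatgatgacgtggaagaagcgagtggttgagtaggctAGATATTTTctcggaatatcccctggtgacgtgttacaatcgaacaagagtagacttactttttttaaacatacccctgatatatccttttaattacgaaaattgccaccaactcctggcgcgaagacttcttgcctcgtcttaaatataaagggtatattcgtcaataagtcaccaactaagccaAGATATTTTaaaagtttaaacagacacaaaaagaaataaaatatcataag
The windows lie at chr1:37822-38121 (minus strand), chr2:19245341-19245640 (plus strand), chr5:8358497-8358796 (minus strand), chr5:24674713-24675012 (plus strand), chr3:17182792-17183091 (plus strand) and chr1:25508389-25508688 (plus strand), in that order. A G-box stood in the windows of 8 of the 10 morning genes and 2 of the 9 evening genes. An evening element stood in 1 of 10 and 4 of 9, and *FKF1* had 2 of them. Over the whole comparison, CACGTG was in 13.2% of 741 UG promoters, 11.1% of 700 DG promoters, 8.66% of 17596 promoters of genes tested and not called, and 7.79% of all 26718 promoters. The evening element, which was searched for after the values were seen, was in 3.78% of UG promoters, 10.0% of DG promoters, 2.72% of those not called and 2.86% of all. The shares describe letters in the windows and are no evidence of binding.

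Many genes that rise when sugar runs short were DGs in *hda15*. In darkness or starvation the kinase SnRK1 raises a set of genes that break down reserves, and light and sugar lower them. On a list of 21 such genes put together after their values were seen, 13 were DGs and 0 UGs (median log2FC -1.21), and on a like list of 13 starch breakdown genes 8 were DGs and 0 UGs (median -1.34). Since the values chose these lists, the counts are a description. *BT1*, a BTB and TAZ domain protein repressed by sugar, had 175 and 195 CPM in Col-0 and 19.1 and 16.4 CPM in *hda15* (log2FC -3.39, SE 0.146, adjusted p = 9.63e-10). *BT2* had 293 and 312 CPM in Col-0 and 50.1 and 46.2 CPM in *hda15* (log2FC -2.66, SE 0.133, adjusted p = 4.56e-09). *ASN1*, the dark-inducible asparagine synthetase, had 1036 and 1040.0 CPM in Col-0 and 239 and 196 CPM in *hda15* (log2FC -2.26, SE 0.141, adjusted p = 4.24e-08). *SEN1*, a dark and senescence marker, had a log2FC of -2.10 (adjusted p = 3.22e-07). *PWD* and *GWD1*, the dikinases that phosphorylate starch so that it can be degraded, had log2FCs of -2.37 and -2.13. These genes were lower against the other pair by smaller amounts, with log2FCs of -1.92 for *BT1*, -1.20 for *BT2*, -1.11 for *ASN1* and -1.02 for *PWD*, all past the threshold, and -0.47 for *GWD1*, which was not. On the whole lists 3 of 21 and 1 of 13 genes were DGs there. The 12 senescence genes summed to 502 and 565 CPM in Col-0, 180.0 and 226 CPM in *hda15* and 231 and 288 CPM in the further pair, with *SAG12* at 0 in the 4 libraries. Of 10 tested, 4 were DGs, *SEN1* and the nuclease *BFN1* having the smallest p, and 0 were DGs against the other pair.

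About as many jasmonate genes were UGs against either wild type. Jasmonate is the wound and defence hormone, made from plastid lipids by LOX, AOS, AOC and OPR3 enzymes, held back by JAZ repressors and inactivated by JOX oxygenases. Of 19 genes tested, 10 were UGs and 0 DGs (median log2FC 1.44). Against the other Col-0 pair 12 were UGs and 0 DGs (median 1.46), and 9 genes were UGs in both. *JOX2* had 15.2 and 15.3 CPM in Col-0, 73.4 and 92.2 CPM in *hda15* and 5.70 and 5.51 CPM in the other pair (log2FC 2.43, SE 0.155, adjusted p = 5.2e-08). Synthesis genes named after their values were seen included *LOX2*, with 31.98 and 35.4 CPM in Col-0, 102 and 201 CPM in *hda15* and 15.4 and 23.3 CPM in the other pair (log2FC 2.16, SE 0.230, adjusted p = 8.33e-06), and *AOC3*, with 3.06 and 3.65 CPM in Col-0, 14.3 and 19.3 CPM in *hda15* and 1.46 and 1.31 CPM in the other pair (log2FC 2.32, SE 0.234, adjusted p = 4.93e-06). *AOS*, the first committed enzyme, had 233 and 211 CPM in Col-0 and 643 and 616 CPM in *hda15* (log2FC 1.5, SE 0.129, adjusted p = 1e-06). The *hda15* libraries lay above all 4 wild-type libraries for each of these. The repressor *JAZ10* rose against its own pair (log2FC 2.78, SE 0.421, adjusted p = 0.000207) but not against the other (log2FC 0.61, adjusted p = 0.147). *MYC2*, the factor that drives the response, was not called (log2FC -0.35, adjusted p = 0.0975).

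Cold, drought and heat genes were high in part. Of 9 genes on the list of CBF factors and cold targets, 4 were UGs and 1 a DG (median log2FC 0.52). Against the other pair the median was 1.69, and 6 genes were UGs, the same 4 among them. *COR15A*, a chloroplast protein that protects membranes in frost, had 2.35 and 2.84 CPM in Col-0, 30.7 and 50.4 CPM in *hda15* and 2.43 and 0.459 CPM in the other pair (log2FC 3.96, SE 0.260, adjusted p = 6.89e-08). *GOLS3*, a galactinol synthase induced by cold, had 3 and 0 counts in Col-0 and 129 and 143 in *hda15*, a ratio of 67.1 with a 95% exact interval of 22.7 to 327. The neighbouring paralogue *COR15B* went the other way, with 1.28 and 2.68 CPM in Col-0 and 0.0523 and 0.484 CPM in *hda15* (log2FC -2.91, SE 0.672, adjusted p = 0.00499), although without Col-0 replicate 2 its adjusted p was 0.0569. The 2 genes are close copies and *COR15B* overlaps another annotated gene, so their reads may be shared in part. Of 21 abscisic acid and drought genes, which share *COR15A*, *COR15B* and *KIN1* with the cold list, 6 were UGs and 4 DGs. *RD29A*, a desiccation-responsive gene, had 39.7 and 42.2 CPM in Col-0 and 137 and 246 CPM in *hda15* (log2FC 2.22, SE 0.207, adjusted p = 2.3e-06). *RAB18*, a dehydrin of the same hormone response, had 37.3 and 33.1 CPM in Col-0 and 12.1 and 12.03 CPM in *hda15* (log2FC -1.55, SE 0.158, adjusted p = 5.19e-06). The hormone's markers thus moved in both directions, and 4 of the 6 UGs but none of the DGs were also called against the other pair.

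Of 11 heat shock genes tested, 5 were UGs and 1 a DG, and the same 6 calls were made against the other pair. *HSP70* (AT3G12580), a cytosolic chaperone, had 40.1 and 42.0 CPM in Col-0, 101 and 159 CPM in *hda15* and 38.7 and 30.2 CPM in the other pair (log2FC 1.66, SE 0.179, adjusted p = 9.49e-06). *HSP17.6II*, a small heat shock protein, had 1 and 0 counts in Col-0 and 53 and 69 in *hda15*, a ratio of 90.2 with a 95% exact interval of 15.9 to 3593. Their activator *HSFA2*, named after its value was seen, rose by a log2FC of 2.52 (adjusted p = 0.00139). *BIP3*, an endoplasmic reticulum chaperone, was the DG (log2FC -2.60, SE 0.475, adjusted p = 0.000947). *HSP17.4*, *HSP18.2*, *HSFA7A*, *HSFB2A* and *HSP70T-2* were tested and not called.

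**Figure D3:**
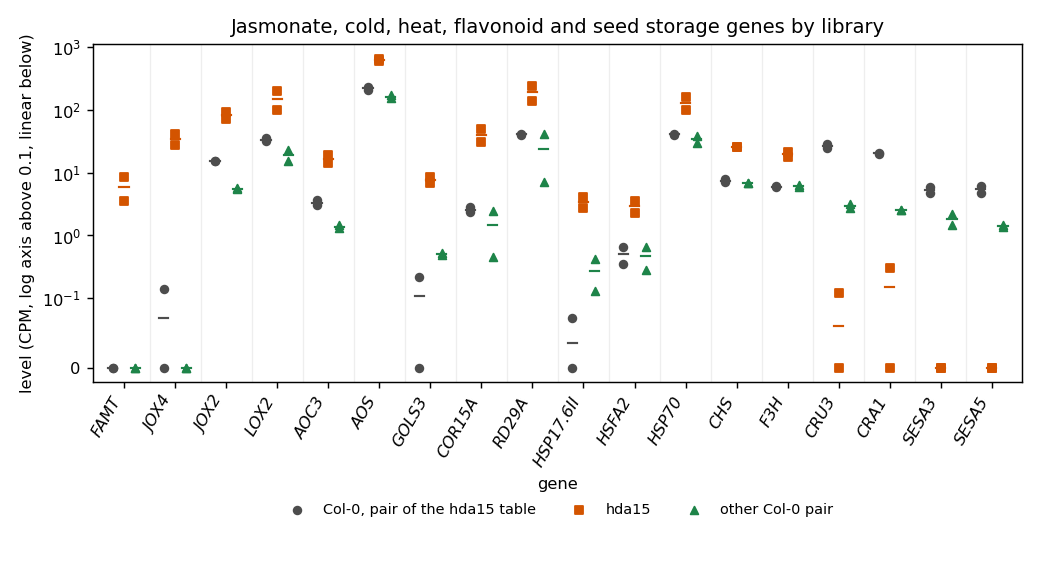
Levels of jasmonate, cold, heat, flavonoid and seed storage genes in CPM (y, log above 0.1 and linear below), 1 point per library and a short line at the mean of each pair; symbols as in the plot of clock genes. The *hda15* libraries lie above all 4 Col-0 libraries from *FAMT* to *F3H* and below them for the 4 seed storage genes.

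The flavonoid and glucosinolate pathways both belong to secondary metabolism. Of 8 flavonoid and anthocyanin genes tested, 5 were UGs and 0 DGs, and 3 were UGs against the other pair too. *CHS*, the entry enzyme chalcone synthase, had 7.19 and 7.86 CPM in Col-0, 25.5 and 26.2 CPM in *hda15* and 6.75 and 6.82 CPM in the other pair (log2FC 1.77, SE 0.174, adjusted p = 3.73e-06). *F3H*, further along the pathway, had 5.98 and 6.08 CPM in Col-0, 21.6 and 17.9 CPM in *hda15* and 6.47 and 6.03 CPM in the other pair (log2FC 1.70, SE 0.194, adjusted p = 1.57e-05). For both, the 2 Col-0 pairs lay together and the mutant above them. Of 12 aliphatic glucosinolate genes, which make defence compounds from methionine, 7 were UGs and 0 DGs (median log2FC 1.47). None was called against the other pair, where the median was -0.05. *MYB29*, a regulator of the pathway, had 0 and 2 counts in Col-0 and 61 and 65 in *hda15* (ratio 46.6, 95% exact interval 12.6 to 389), but 9.04 and 2.75 CPM in the other pair against 3.19 and 3.93 CPM in *hda15*. *BCAT4*, the aminotransferase of the first step, had 14.2 and 14.5 CPM in Col-0, 56.4 and 46.7 CPM in *hda15* and 58.3 and 27.3 CPM in the other pair (log2FC 1.84, SE 0.157, adjusted p = 9.39e-07). *CYP83A1* of the core pathway had 39.5 and 36.3 CPM in Col-0, 95.2 and 98.5 CPM in *hda15* and 129 and 84.5 CPM in the other pair (log2FC 1.35, SE 0.130, adjusted p = 3.17e-06). At each of these genes 1 of the other Col-0 libraries lay above both *hda15* libraries and 1 below both.

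Seed storage transcripts had few or no counts in *hda15*. Albumins, cruciferins and oleosins are laid down in the maturing seed, and their RNA is left over in young seedlings. Of 9 genes tested, 8 were DGs and 0 UGs (median log2FC -6.25, or -6.03 with the 2 genes at 0 set to their limits). *CRU3*, a cruciferin, had 405 and 307 counts in Col-0 and 0 and 2 in *hda15*, a ratio of 481 with a 95% exact interval of 133 to 3982. *CRA1*, another cruciferin, had 290 and 250 counts in Col-0 and 0 and 5 in *hda15* (log2FC -7.11, SE 0.425, adjusted p = 3.04e-08). The albumins *SESA5* (86 and 59 counts in Col-0) and *SESA3* (84 and 58) had 0 counts in both *hda15* libraries and were at least 65.3-fold and 64.0-fold lower. *SESA2* fell from 117 and 69 counts in Col-0 to 3 and 0 in *hda15*, and *SESA1* from 49 and 68 to 2 and 0. The whole list of 12 genes summed to 82.5 and 73.4 CPM in Col-0, 1.31 and 3.02 CPM in *hda15* and 13.5 and 12.6 CPM in the other pair. The other pair thus also had less than the Col-0 of the *hda15* table, but more than the mutant, and 6 of the 7 genes tested against it were DGs. The albumin genes are close copies of one another, so their single values are uncertain. Whether the seedlings of the 2 genotypes were equally far past germination was not tested.

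Some iron deficiency genes were low in *hda15* against its own control. The transcription factor FIT and the Ib bHLH factors raise *FRO2* and *IRT1* for iron uptake in the root epidermis. Of 18 genes tested 6 were DGs and 0 UGs (median log2FC -0.76). *BHLH101* had 4.34 and 4.46 CPM in Col-0 and 0.366 and 0.604 CPM in *hda15* (log2FC -3.19, SE 0.408, adjusted p = 4.76e-05). *ORG1*, a marker that rises with iron need, had 78.6 and 74.9 CPM in Col-0 and 36.1 and 36.03 CPM in *hda15* (log2FC -1.09, SE 0.130, adjusted p = 2.29e-05). *BHLH100*, also of the Ib group, had 2.64 and 3.08 CPM in Col-0 and 0.157 and 0.242 CPM in *hda15* (log2FC -3.81, SE 0.519, adjusted p = 8.22e-05) and 0 counts in the other Col-0 pair. Against that pair 0 genes of the list were DGs and 7 were UGs, *FIT* among them (log2FC -1.09 against its own pair and 2.49 against the other, with -0.78 and no call against its own pair without *hda15* replicate 1). For root hair genes 2 of 11 were DGs against the own pair (median -0.67), *PRP3* and *RHS10*, and 6 UGs and 0 DGs against the other (median 2.92). For suberin and the Casparian strip the medians were -0.10 with 0 calls of 17, and 1.18 with 9 UGs. Of 54 class III peroxidases, most of them root genes, 1 was a UG and 3 were DGs, against 28 UGs and 1 DG with the other pair. The sums of root markers given above move with these counts, and their part in them was not tested.

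Some shade and auxin synthesis genes fell against both controls. Of 17 shade and phytochrome-responsive genes, 4 were DGs and 1 a UG, and 3 DGs were called against both pairs. *HAT3*, a homeobox gene of the shade response, had 49.0 and 48.7 CPM in Col-0, 17.37 and 15.5 CPM in *hda15* and 36.2 and 40.9 CPM in the other pair (log2FC -1.58, SE 0.147, adjusted p = 2.3e-06). *ATHB-2* and *ATHB-4*, related shade genes named after their values were seen, had log2FCs of -1.75 and -1.92, and -1.51 and -2.29 against the other pair. Of 8 auxin synthesis genes 3 were DGs and 0 UGs. *YUC9*, a flavin monooxygenase of the last step of auxin synthesis, had 5.77 and 5.19 CPM in Col-0, 1.05 and 0.846 CPM in *hda15* and 5.42 and 4.33 CPM in the other pair (log2FC -2.52, SE 0.335, adjusted p = 6.47e-05), with a log2FC of -2.35 against the other pair. Its relative *YUC5* had log2FCs of -1.35 and -1.23, although without Col-0 replicate 2 its adjusted p was 0.109. *PIF4*, a factor that drives elongation growth in shade and warmth, had 204 and 188 CPM in Col-0 and 100.4 and 90.6 CPM in *hda15* (log2FC -1.04, SE 0.127, adjusted p = 2.97e-05), with a log2FC of -0.12 (adjusted p = 0.526) against the other pair. Its log2FC was -0.97 without *hda15* replicate 2 and -0.99 without Col-0 replicate 1, under the fold threshold.

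Of 22 genes on the chlorophyll synthesis list 1 was a UG and 2 were DGs (median log2FC -0.01). Against the other pair 0 were UGs and 4 DGs (median -0.45). *PORB*, a protochlorophyllide oxidoreductase that acts in light, had 910.1 and 1042 CPM in Col-0, 215 and 217 CPM in *hda15* and 413 and 462 CPM in the other pair (log2FC -2.18, SE 0.135, adjusted p = 4.24e-08), and it was a DG against both. *PORA*, the form of dark-grown seedlings, had 2.21 and 4.30 CPM in Col-0 and 1.203 and 1.57 CPM in *hda15* (log2FC -1.23, SE 0.400, adjusted p = 0.0339), but its call was lost without Col-0 replicate 2 (adjusted p = 0.492), without *hda15* replicate 1 (0.0761) and in DESeq2 (0.103). Against the other pair *PORA* was also a DG (log2FC -1.19, adjusted p = 0.0305 in edgeR). The UG was *CLH1* (log2FC 1.87, SE 0.155, adjusted p = 7.06e-07), a chlorophyllase and so not an enzyme of synthesis. No gene was called among 21 antenna proteins (median log2FC 0.04) or among 33 photosystem subunits (median 0.22), where 5 and 9 genes passed the adjusted p in edgeR without reaching the fold. Against the other pair 0 antenna genes were called (median -0.01), while 6 photosystem genes were DGs and 0 UGs (median -0.27). Of 13 photoreceptor genes *FKF1* was the single DG, and 7 in all were lower at an adjusted p below 0.05 (median -0.39). None was called against the other pair (median -0.16). The B-box (BBX) zinc finger family, which acts downstream of light and the clock, had 9 UGs and 4 DGs of 27 genes. *BBX3* had 12.04 and 12.6 CPM in Col-0 and 40.3 and 51.1 CPM in *hda15* (log2FC 1.88, SE 0.167, adjusted p = 1.4e-06), *BBX30* 0.285 and 0.0811 CPM in Col-0 and 4.29 and 2.96 CPM in *hda15* (log2FC 4.21, SE 0.553, adjusted p = 6.02e-05), and *BBX7* 8.55 and 8.11 CPM in Col-0 and 1.99 and 1.81 CPM in *hda15* (log2FC -2.13, SE 0.264, adjusted p = 3.46e-05). Of the 27 genes, 2 were UGs and 1 a DG against the other pair. *BBX30* was called there (log2FC 1.94), but *BBX3* (0.47) and *BBX7* (-0.90) were not.

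SAUR proteins are small auxin-induced proteins that promote cell expansion by activating proton pumps at the plasma membrane. Of 79 *SAUR* genes in the table, 56 were tested, 5 were UGs and 1 was a DG (8.93% and 1.79%, median log2FC 0.17). Against the other Col-0 pair 5 were UGs and 23 were DGs (median -0.81). A further list held the *SAUR* genes that the study itself named for this mutant, and so was not independent of it. In a separate measurement of transcript level (RT-qPCR), the study reported each of them significantly higher in the mutant than in the wild type. The study also reported raised histone acetylation at the promoters of some of them. Those measurements were not tested here. All 8 genes of the list had a positive log2FC in these libraries (median 0.66), 4 passed the adjusted p and 2 were UGs. *SAUR78* had 36.5 and 36.2 CPM in Col-0 and 104 and 92.9 CPM in *hda15* (log2FC 1.43, SE 0.132, adjusted p = 2.04e-06). *SAUR51* had 1.496 and 2.19 CPM in Col-0 and 4.39 and 2.96 CPM in *hda15* (log2FC 1.00, SE 0.352, adjusted p = 0.0469), and its call was lost in DESeq2 (adjusted p = 0.157) and without *hda15* replicate 1 (0.273), Col-0 replicate 1 (0.307) or Col-0 replicate 2 (0.0551). *SAUR6* had 15.2 and 10.5 CPM in Col-0 and 27.4 and 22.1 CPM in *hda15* (log2FC 0.94, SE 0.192, adjusted p = 0.00219) and *SAUR16* 19.8 and 17.0 CPM in Col-0 and 30.6 and 27.9 CPM in *hda15* (log2FC 0.66, SE 0.157, adjusted p = 0.00600), both under the fold threshold. For *SAUR14*, *SAUR15*, *SAUR20* and *SAUR21* the log2FCs were 0.35, 0.66, 0.24 and 0.44 with adjusted p from 0.145 to 0.446. Without *hda15* replicate 1 the value of *SAUR20* was -0.03.

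In the other Col-0 pair most of these genes were higher than in the mutant. *SAUR16* had 77.3 and 79.0 CPM there, *SAUR6* 58.0 and 76.2 CPM and *SAUR14* 42.0 and 39.7 CPM. The log2FCs against that pair were -1.43 for *SAUR6*, -1.49 for *SAUR14*, -2.10 for *SAUR15*, -1.41 for *SAUR16* and -1.45 for *SAUR20*, all DGs. *SAUR21* (-0.79) and *SAUR51* (-0.31) were negative too, and *SAUR78* was the member that stayed positive (0.79, adjusted p = 0.000933). The sign of 7 of the 8 genes thus differed between the wild types. Outside the 8, *SAUR9* rose (log2FC 1.62, SE 0.369, adjusted p = 0.00454) and *SAUR22* fell (log2FC -1.04, SE 0.208, adjusted p = 0.00193), the latter also against the other pair (-1.88) and no longer past the fold without Col-0 replicate 2 (-0.91). Several *SAUR* genes are tandem copies with like sequences, so reads may be split among them.

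**Figure D4:**
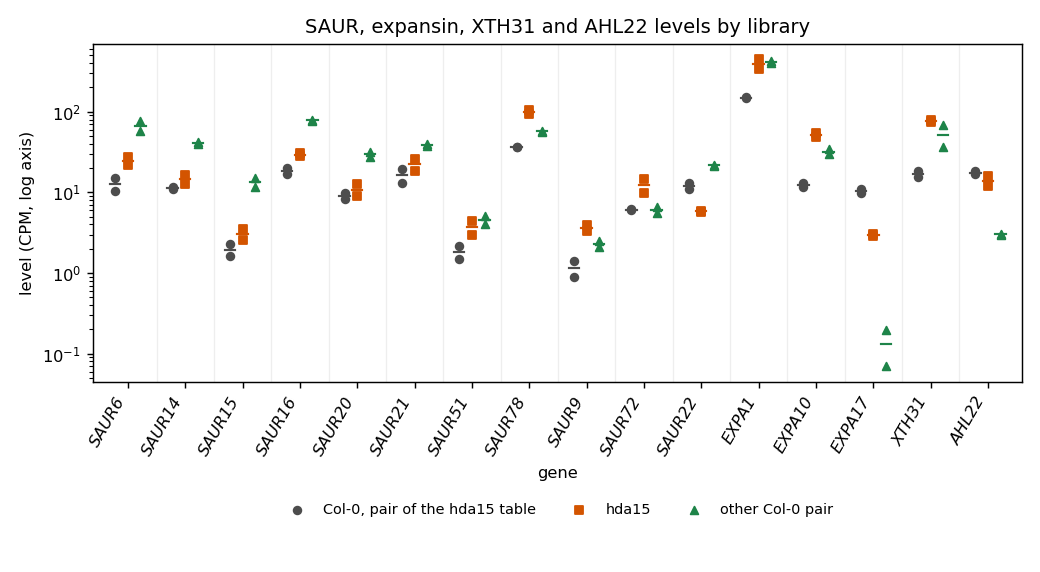
Levels of the 8 listed *SAUR* genes, 3 further *SAUR* genes, 3 expansins, *XTH31* and *AHL22* in CPM (y, log axis), 1 point per library and a short line at the mean of each pair; symbols as in the plot of clock genes. From *SAUR6* to *SAUR21* the other Col-0 pair lies above *hda15*, and *AHL22* and *EXPA17* are low in that pair.

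Of 16 alpha-expansins 3 were UGs and 1 a DG. *EXPA10* had 13.2 and 11.7 CPM in Col-0 and 54.9 and 48.5 CPM in *hda15* (log2FC 2.05, SE 0.156, adjusted p = 3.22e-07), and *EXPA1* 146 and 151 CPM in Col-0 and 446 and 343 CPM in *hda15* (log2FC 1.403, SE 0.143, adjusted p = 5.27e-06). *EXPA17*, an expansin of roots, fell (log2FC -1.80, SE 0.236, adjusted p = 5.68e-05) but stood 4.38 above the other pair on the log2 scale, where it had 0.0695 and 0.197 CPM. Of 22 xyloglucan endotransglucosylases, which cut and rejoin wall polymers, 4 were UGs and 0 DGs (median log2FC -0.14). The log2FC was negative for 12 of them, and at an adjusted p below 0.05 in edgeR 6 were higher and 3 lower. Against the other pair 3 were UGs and 2 DGs (median 0.42). *XTH31* had 18.6 and 15.6 CPM in Col-0 and 78.5 and 74.3 CPM in *hda15* (log2FC 2.15, SE 0.146, adjusted p = 1.02e-07). Against the other pair the log2FCs were 0.69 for *EXPA10*, -0.07 for *EXPA1* and 0.55 for *XTH31*, none of them called. Of 24 Aux/IAA repressors 2 were UGs, *IAA19* (log2FC 1.16, SE 0.143, adjusted p = 3.34e-05) and *IAA5* (log2FC 4.21, SE 0.587, adjusted p = 0.000106), with 0.34 and -0.05 against the other pair.

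**Figure D5:**
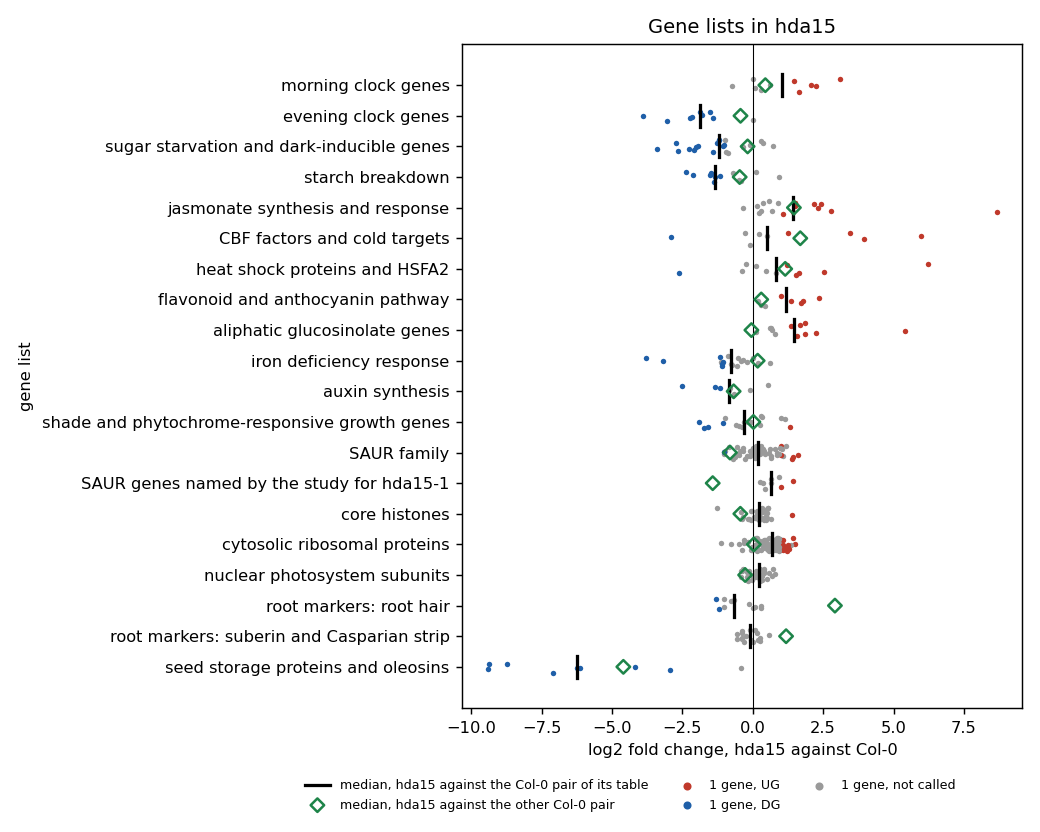
Log2 fold changes of *hda15* against the Col-0 pair of its table (x) for the tested members of 20 gene lists (y), 1 point per gene in red (UG), blue (DG) or grey (not called). Black bars mark each list's median and green diamonds the median of the same list against the other Col-0 pair, which lies near the bar for the jasmonate and auxin synthesis lists and on the other side of 0 for the *SAUR* lists and root hair genes.

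Of 3 tested class I deacetylases, *HDA6*, *HDA9* and *HDA19*, none was called, and log2FCs were between -0.19 and 0.28. Of 5 tested class II and related genes *HDA15* and *HDA2* were DGs. *HDA2* had 15.4 and 12.6 CPM in Col-0 and 7.58 and 6.11 CPM in *hda15* (log2FC -1.03, SE 0.206, adjusted p = 0.00186), close enough to the fold threshold that it was lost without Col-0 replicate 1 (-0.89) or *hda15* replicate 2 (-0.89), and its log2FC against the other pair was -0.04. *HDA14* was lower (log2FC -0.81, SE 0.161, adjusted p = 0.00183) without reaching the fold, and by -0.89 against the other pair. The plant-specific HD-tuins *HDT1*, *HDT2*, *HDT3* and *HDT4* were higher at an adjusted p below 0.05, by 0.80, 0.53, 0.47 and 0.85, under the fold. Against the other pair the values were -0.13, 0.46, 0.37 and 0.13. Among 40 core histone genes 1 was a UG and 0 were DGs (median 0.23), and against the other pair 8 were DGs (median -0.44). Of 28 *AHL* genes 1 was a DG, *AHL9*, with a median of -0.12 against the own pair and 0.48 with 10 UGs against the other.

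Of 15 factors known or proposed to work with HDA15, 1 was a UG and 1 a DG. *HYH*, the close homologue of *HY5*, had 2.28 and 1.86 CPM in Col-0, 11.1 and 13.0 CPM in *hda15* and 7.02 and 5.38 CPM in the other pair (log2FC 2.52, SE 0.252, adjusted p = 4.3e-06). *PIF4* was the DG. *PIF5* (log2FC -0.58, SE 0.141, adjusted p = 0.00667) and *NF-YC4* (log2FC -0.87, SE 0.152, adjusted p = 0.000672) were lower under the fold threshold. *PIF1* and *MYB96* passed the adjusted p with log2FCs of -0.48 and 0.73. *PIF3*, *HY5*, *HFR1*, *NF-YC1*, *NF-YC3*, *NF-YC9*, *AHL22*, *FRS7* and *FRS12* did not pass it, with log2FCs between -0.44 and 0.38. *AHL22* had a log2FC of -0.34 against its own pair and 2.21 (adjusted p = 4.4e-05) against the other.

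Of 99 cytosolic ribosomal protein genes, 14 were UGs and 0 DGs, and 68 in all were higher at an adjusted p below 0.05 against 1 lower (median log2FC 0.67). AT5G57290, a large-subunit acidic protein, had 189.9 and 154 CPM in Col-0 and 567 and 406 CPM in *hda15* (log2FC 1.496, SE 0.162, adjusted p = 9.92e-06). The median against the other pair was 0.04, with 4 UGs and 1 DG. Ribosomal protein genes come in near-identical copies, so single genes are uncertain. Of 87 chloroplast-encoded genes tested 32 were UGs and 0 DGs (median 0.91, and 0.25 with 13 UGs and 1 DG against the other pair). Libraries were made from polyadenylated RNA, and the share of counts on these genes was 0.0716% and 0.105% in Col-0 and 0.221% and 0.151% in *hda15*. The part of this share in the 32 calls was not tested. ATCG00040 had 6.98 and 7.30 CPM in Col-0 and 22.8 and 18.1 CPM in *hda15*. In the remaining 18 lists between 0 and 3 members were UGs and between 0 and 2 DGs, with medians from -0.35 to 0.37.

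Genes were also grouped by the letters of their symbols. Among families with at least 8 tested genes, the highest shares of UGs were in *BBX* (6 of 16 genes with that symbol), *JAZ* (3 of 8), *HSP* (7 of 21), *TIM* (3 of 11), *ERD* (3 of 12) and *RD* (2 of 8). Some of these families held DGs too, 3 in *BBX*, 1 in *JAZ* and 1 in *RD*. The *JAZ* gene that was a DG is not on the jasmonate list above, and it was a UG against the other pair. *TIM13*, a mitochondrial import chaperone, had 6.91 and 6.65 CPM in Col-0 and 18.7 and 14.3 CPM in *hda15* (log2FC 1.28, SE 0.204, adjusted p = 0.000329) and a log2FC of -0.13 against the other pair. The highest shares of DGs were in *TPS* (3 of 8), *BGAL*, *BHLH* and *ELF* (3 of 12 each) and *COR* and *HDA* (2 of 8 each). *COR* also held 1 UG. The *HDA* calls were *HDA15*, the gene disrupted in the mutant, and *HDA2*, whose call depended on single libraries as given above. *TPS11*, a class II trehalose phosphate synthase, had 202 and 207 CPM in Col-0 and 83.6 and 84.6 CPM in *hda15* (log2FC -1.29, SE 0.123, adjusted p = 3.06e-06) and 0.16 against the other pair. *BGAL10*, a beta-galactosidase of the cell wall, had 79.8 and 81.4 CPM in Col-0, 19.6 and 23.1 CPM in *hda15* and 41.9 and 42.4 CPM in the other pair (log2FC -1.93, SE 0.141, adjusted p = 2.47e-07). Symbols group genes by name, and *TPS* and *ELF* join unrelated genes.

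Calls of one direction stood close together at 4 places, counted as at least 4 calls within 10 consecutive annotated genes. On chromosome 2, from 12619630 to 12634120 of TAIR10.1, *GSTU4*, *GSTU5* and *GSTU6*, tandem glutathione S-transferases, and AT2G29500, a small heat shock protein, were UGs. *GSTU5* had 30.1 and 33.7 CPM in Col-0 and 76.9 and 100.2 CPM in *hda15* (log2FC 1.47, SE 0.152, adjusted p = 6.28e-06). Also on chromosome 2, from 6917514 to 6947866, *MEE14* (log2FC -2.36, SE 0.129, adjusted p = 1.15e-08), AT2G15960 (log2FC -1.85, SE 0.132, adjusted p = 1.8e-07), AT2G15880 and AT2G15900 were DGs. AT2G15960, a stress-induced protein, was also a DG against the other pair (log2FC -1.72), with 109.8 and 119 CPM in Col-0, 31.0 and 33.0 CPM in *hda15* and 107 and 104 CPM in the other pair. The other runs were DGs on chromosome 1, from 553019 to 580532 (AT1G02610, AT1G02620, AT1G02660 and AT1G02670) and from 4840562 to 4856762 (AT1G14160, AT1G14170, AT1G14185 and AT1G14205). None lay on chromosome 3, where *HDA15* is.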

How the data were processed

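RNA-seq of whole Arabidopsis seedlings was analysed from the raw counts per gene that the authors deposited, made with HISAT2 and Subread on TAIR10 per the labels (the strand setting of counting is not given in the sources used here). The *hda15* table held 27416 genes in 2 *hda15-1* and 2 Col-0 libraries of 12771163 to 21400580 counts. A further 2 Col-0 columns, in the table of the triple mutant, could be matched to no labelled sample and served as the other Col-0 pair. Whether they are separate Col-0 samples could not be settled. Low genes were removed with filterByExpr, and edgeR 4.0.16 (R 4.3.3) fitted TMM-scaled counts with the quasi-likelihood test and Benjamini-Hochberg adjustment over all genes tested, with thresholds of 0.05 on adjusted p and 1 on the absolute log2FC. SE is an approximate standard error, the absolute log2FC divided by the square root of the F statistic of the quasi-likelihood test. Biological replicates were those of the labels. Because the labels tie same-numbered libraries by the number alone, no block was used in the main fit. Scripts were tested on simulated data with known changes. DESeq2 1.42.0, other scalings and filters, the other Col-0 pair and leaving out each library were tried as alternatives. Exact intervals came from scipy 1.17.1. Symbols, positions and promoters came from RefSeq TAIR10.1, which matched 26719 of the 27416 genes. Genes were named as *HDA15* and its neighbours within 20 kb, deacetylases and partner factors, the *SAUR* list, the 10 largest rises and falls with a mean of at least 50 normalised counts in the higher group, up to 2 UGs and 2 DGs of smallest p per list or family (the smallest p where none was called), and members of runs. *AOC3*, *AOS*, *ATHB-2*, *ATHB-4*, *BOA*, *FIT*, *HSFA2*, *LNK2*, *LOX2*, *LUX*, *MYC2*, *PRR7*, *PRR9*, *RVE8* and *TOC1* were named outside this rule, after their values were seen. The result for 1 gene that the rule names is not reported here. The comparison and the gene lists were chosen with earlier results of these data known.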

Additional observations from a re-analysis of the deposited data

How the results depend on the processing

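With 2 libraries a group, leaving out 1 library gave 648 to 956 UGs and 581 to 924 DGs. The UG counts were 648 without *hda15* replicate 1 and 956 without *hda15* replicate 2, and the DG counts 581 without Col-0 replicate 2 and 924 without *hda15* replicate 2. DESeq2 called 622 UGs and 559 DGs, RLE scaling 781 and 699, upper-quartile scaling 786 and 680, no filter 822 and 733, at least 10 counts in every library 635 and 607, and all libraries in a single fit 740 and 659. The labels tie same-numbered libraries by the number alone. Their deviations from the group means correlated at 0.165, which cannot settle whether they were paired. A replicate block gave 815 UGs and 746 DGs, with *SAUR51* (0.995) and *SAUR72* (0.987) under the fold threshold. A test against the fold threshold itself (glmTreat) called 151 UGs and 147 DGs. The other Col-0 pair gave 1559 UGs, and all 4 Col-0 libraries together gave 29 UGs and 6 DGs. The causes were not tested. *HDA15* kept its call under every alternative run.

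Signs turned mainly with the wild type. Against the other Col-0 pair the log2FC was 0.185 for *CASP*, -0.132 for *HDT1*, 0.073 for *PIF5*, 2.21 for *AHL22*, -1.432 for *SAUR6*, -1.489 for *SAUR14*, -2.104 for *SAUR15*, -1.414 for *SAUR16*, -1.448 for *SAUR20*, -0.786 for *SAUR21*, -0.314 for *SAUR51*, -0.726 for *MYB29*, -0.14 for *CYP83A1*, 2.489 for *FIT*, -0.067 for *EXPA1*, 4.378 for *EXPA17*, 0.158 for *TPS11*, -0.047 for *IAA5*, 2.649 for *WRKY72* and -0.134 for *TIM13*. List medians were -0.049 (aliphatic glucosinolates), -1.423 (*SAUR* genes named by the study), 0.419 (xyloglucan endotransglucosylases), 0.482 (*AHL* family), -0.441 (core histones), -0.271 (photosystem subunits), 2.918 (root hair), 1.221 (peroxidases), -0.407 (guard cell) and -0.281 (the 1 pollen and flower gene tested). With all 4 Col-0 libraries the log2FC was 0.433 for *AHL22*, -0.69 for *SAUR6*, -0.849 for *SAUR14*, -1.314 for *SAUR15*, -0.723 for *SAUR16*, -0.843 for *SAUR20* and -0.304 for *SAUR21*, and medians were -0.706 (*SAUR* genes named by the study), 0.197 (*AHL* family), -0.144 (photosystem subunits), 0.285 (root hair) and 0.202 (peroxidases). Leaving out 1 library gave -0.025 to 0.459 for *SAUR20*. Over 112 named genes, other fits of the same 4 libraries left the call as it was in 755 cases and lost it in 4, and leaving out 1 library left it in 429, lost it in 16, gained it in 2 and turned the sign in 1. With all 4 Col-0 libraries 82 of the 112 genes lost their call with the sign kept and 7 turned sign. Against the other Col-0 pair these numbers were 30 and 20 of 109, and under glmTreat 25 of 112 lost their call. The 112 include genes with no call against the own Col-0 pair, counted as unchanged where they stayed uncalled. A gene that turned sign was counted there only, whether or not it also lost a call. The numbers are thus not shares of the called genes.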
